A study of Phyllostachys edulis with 12 samples.

Results

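Among the genes of cold-treated moso bamboo seedlings, 139 were well counted in untreated plants, stayed near that level through 1 h at -2 °C, and lay at 11.9% to 51.9% of it after 24 h. They were picked from 47091 genes by a rule on CPM (the count of a gene divided by the total of its library, times 1000000). A member had a control mean of at least 20 CPM, and both its 24 h values were at most 0.57 times its lowest control value. Its higher 24 h value was also above 0.25 times the lowest of the 9 libraries taken at other times, and its 0.5 h and 1 h means were each above 0.67 times the control mean. The measured values therefore chose the members, and the size and timing of their fall are given as a description. The files list genes by identifier alone, with no name or function, so only a few identifiers are printed, and no pathway, gene family or tissue marker was examined.

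Moso bamboo (Phyllostachys edulis) is a large woody grass. Whole seedlings, 3 weeks old and at the 3-leaf stage, were raised in a greenhouse. Control seedlings had no cold treatment, and the others stood at -2 °C in a freezing chamber for 0.5 h, 1 h or 24 h, with light and day length as for the controls. The libraries used number 3 for the control, 3 for 0.5 h, 3 for 1 h and 2 for 24 h, and the labels do not say whether a library is 1 plant or a pool, nor name a cultivar.

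As background, plants meet cold with fast induction of regulators such as the CBF transcription factors and with a slower resetting of many other transcripts, among which genes of growth and photosynthesis are often lowered. The level of a messenger RNA is set by both its synthesis and its decay. A long-lived transcript can therefore stay near its starting level for some time after its synthesis slows. None of these roles can be assigned to the members here.

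Total counts lay between 29304206 and 34543663 per library. The scaling matters for this set. TMM factors, which correct for differences in composition between libraries, were 0.892 and 0.923 for the 24 h libraries and 0.982 to 1.06 for the others, so TMM scaling raises the 24 h values relative to the plain CPM of the rule. With TMM-scaled CPM the same rule kept 77 genes, all of them among the 139. Single libraries also set its size: the rule kept 264 genes without control replicate 3, 258 without 24 h replicate 1 and 241 without 24 h replicate 2, and these held 136, 133 and 135 of the 139 members.

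Of the 47091 genes, 10687 had a control mean of at least 20 CPM, and 152 of these met the limit on the 24 h fall. The lower limit removed 2 genes with a larger fall, and the early limits removed 11, of which 6 were too low at 0.5 h, 9 at 1 h and 4 at both. Most genes of this abundance that lay this low at 24 h were above the early limit after 1 h. Over all 10687 genes the lower quartiles were 0.93 (0.5 h) and 0.939 (1 h) times the control mean, above that limit. Most genes of this abundance therefore pass it, whatever their 24 h level, so no timing is read from these counts. At the edge of the fall limit, the nearest member had a higher 24 h value of 0.57 times its lowest control value and the nearest gene outside 0.5702 times. The nearest control means were 20.07 CPM inside and 19.87 CPM outside. On the early limits the nearest members had 0.688 (0.5 h) and 0.686 (1 h) times the control mean, and the nearest genes outside 0.596 and 0.633. On the lower limit of the 24 h value these were 0.276 inside and 0.201 outside.

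The members were abundant by the rule but not among the genes with the most reads. Their control means ran from 20.1 to 239 CPM with a median of 31.1 CPM, against a median of 40.6 CPM over all 10687 genes at or above the minimum. None was among the 100 genes with the highest control CPM, 2 were among the first 500 and 22 among the first 2000. Between 20 and 30 CPM, 67 of 3340 genes (2.01%) were members. From 30 to 60 CPM the members were 42 of 4153 (1.01%), and from 60 CPM upwards 30 of 3194 (0.939%). These values rank genes by reads, not by transcripts per length. Counting error was small in the controls, as the lowest count of a member in a control library was 437. Counts at 24 h were lower, and the lowest count of a member in a 24 h library was 0.

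**Figure D1:**
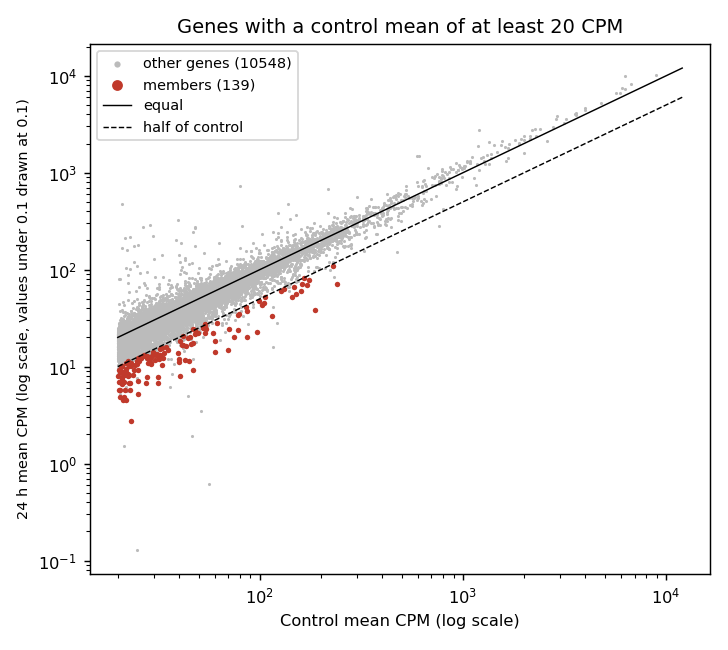
Control mean CPM against 24 h mean CPM, both on log axes, for genes with a control mean of at least 20 CPM. Red points are the 139 members and grey points the other 10548 genes; the solid line marks equal values and the dashed line a 24 h level at 0.5 times the control. The members lie along and under the dashed line from 20.1 to 239 CPM, apart from 5 slightly above it. None reaches the most abundant genes.

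At 24 h the median member stood at 0.406 times its control mean in CPM (interquartile range 0.321 to 0.457), and at 0.456 times with TMM scaling. With plain CPM, 70 members lay between 40% and 50% of control and 35 between 30% and 40%, while 27 lay between 20% and 30%, 2 under 20% and 5 over 50%. The depth of the fall hardly varied with abundance: the median ratio was 0.404 between 20 and 30 CPM, 0.406 between 30 and 60 CPM and 0.429 above. The rule sets the same limits on the fall at every abundance, which leaves little room for a difference. In whole seedlings, fewer cells of a type and less RNA per cell cannot be told apart, so the values describe the seedling as a whole.

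Library by library, the members' median ratio to the control mean was 1.06, 0.997 and 0.916 in control replicates 1, 2 and 3. It was 0.936, 0.88 and 0.9 in the 0.5 h libraries, 0.886, 1.04 and 0.947 in the 1 h libraries, and 0.408 in each 24 h library. The 24 h libraries stand far below the other 9, whose medians overlap between the groups. In 136 of the 139 members both 24 h values lay under every one of the 9 other libraries. The rule asks for this only against the controls, but its early limits make it likely. The share over all genes was not computed, so nothing is read from this count. Over all genes of at least 20 CPM the corresponding medians at 24 h were 0.919 and 0.947 in plain CPM. The side on which these genes lie turns with the scaling: the median ratio of their 24 h mean to the control mean was 0.936 in plain CPM, with 64.4% of them below 1, and 1.05 with TMM scaling, with 40.5% below 1. All 139 members were below 1 on both scales. The rule's limit on the 24 h values fixes this in plain CPM and nearly fixes it with TMM scaling.

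**Figure D2:**
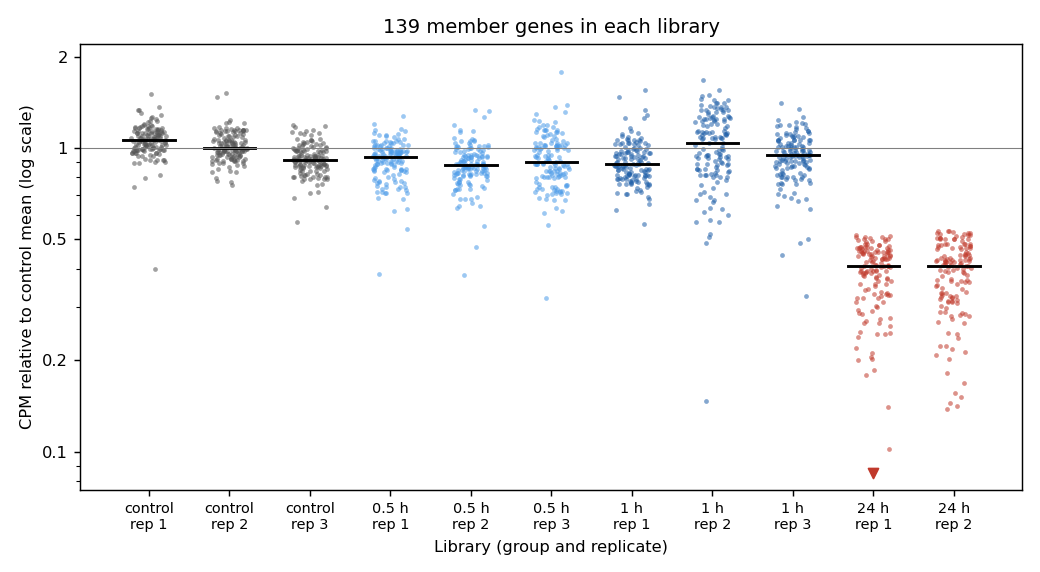
CPM of each of the 139 members relative to its own control mean, on a log axis, in each of the 11 libraries; black bars are medians over members, and the triangle marks a member with 0 counts. The medians lie between 0.88 and 1.06 in the 9 libraries other than 24 h and at 0.408 in both 24 h libraries.

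Together the members took 0.741%, 0.697% and 0.659% of all counts in control replicates 1 to 3. They took 0.646%, 0.624% and 0.641% in the 0.5 h libraries, 0.629%, 0.684% and 0.674% in the 1 h libraries, and 0.273% and 0.271% in the 24 h libraries. The group means were 0.699% ± 0.0407 (SD, n = 3) for the control, 0.637% ± 0.0119 (SD, n = 3) at 0.5 h, 0.662% ± 0.0296 (SD, n = 3) at 1 h and 0.272% ± 0.00169 (SD, n = 2) at 24 h. No single gene carried the sum: the 10 members with the highest control CPM held 25.6% of it in the controls and 25.8% at 24 h.

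PH01001888G0390 was the member with the highest control CPM. Its control libraries held 234, 201 and 283 CPM, against 149, 252 and 185 CPM at 0.5 h, 237, 136 and 277 CPM at 1 h, and 76.7 and 66.9 CPM at 24 h. Both 24 h values lie under all other libraries, while the 0.5 h and 1 h libraries spread widely around the control values. Its log2 fold change at 24 h against the control was -1.57 (SE 0.32, edgeR adjusted p = 0.013). The call was lost without either 24 h library, at -1.70 (edgeR adjusted p = 0.069) without replicate 1 and -1.46 (edgeR adjusted p = 0.11) without replicate 2.

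Phyllostachys_edulis_newGene_3033 had the lowest 24 h level relative to control. Its controls lay at 23.1, 26.8 and 20.04 CPM, the 0.5 h libraries at 24.3, 22.6 and 25.3 CPM, and the 1 h libraries at 22.4, 33.6 and 24.0 CPM. At 24 h it had 0 counts in replicate 1 and 180 counts, or 5.54 CPM, in replicate 2. The 24 h libraries thus differed from each other as well as from the rest, and the log2 fold change of -2.91 (SE 0.87) did not pass the test (edgeR adjusted p = 0.068). Leaving out either 24 h library turned this into a call. Without replicate 1 the value was -1.93 (edgeR adjusted p = 0.0044). Without replicate 2 it was -12.5 (edgeR adjusted p = 3.1e-05), a fitted value against 0 counts that depends on the prior count and is no bound.

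PH01000519G0080 lay above its control level before it lay below. The controls held 22.3, 24.3 and 23.4 CPM, against 29.7, 30.8 and 24.2 CPM at 0.5 h, 29.9, 30.5 and 27.8 CPM at 1 h, and 10.02 and 10.4 CPM at 24 h. Every 1 h library was above every control library, whereas 0.5 h replicate 3 fell within the control range. The log2 fold change was 0.28 at 1 h (SE 0.11, edgeR adjusted p = 0.70) and -1.03 at 24 h (SE 0.13, edgeR adjusted p = 0.001), and the early difference did not pass the test. Both values describe a gene that was chosen for its high 1 h and low 24 h levels.

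**Figure D3:**
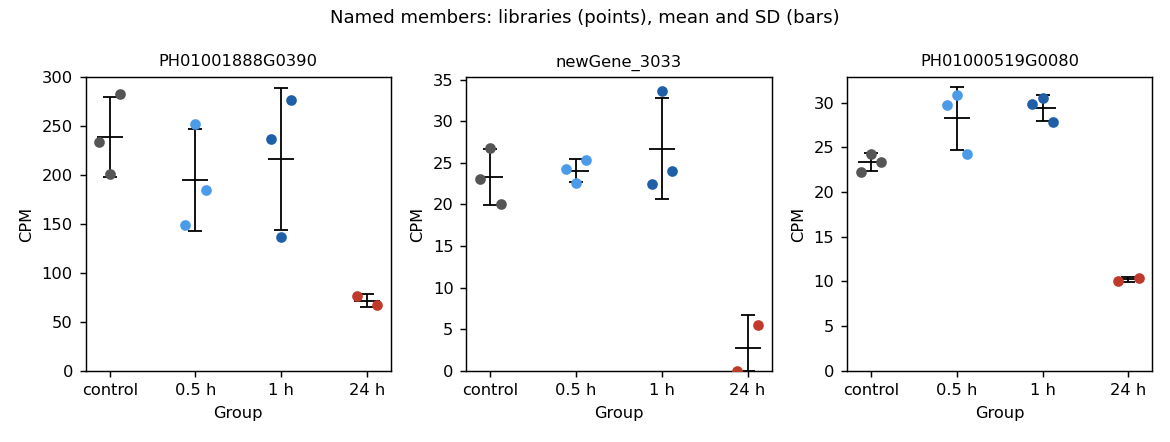
CPM of the 3 named members in each library (points), with the mean and SD of each group (bars, drawn no lower than 0); n = 3 for the control, 0.5 h and 1 h and n = 2 for 24 h. In PH01001888G0390 and PH01000519G0080 both 24 h libraries agree closely and lie under all others, while newGene_3033 has 0 and 5.54 CPM at 24 h.

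In edgeR's quasi-likelihood fit over all 39640 genes counted highly enough to test, all 139 members were tested and 130 were called lower at 24 h than in the control at an adjusted p under 0.05. That is 93.5% of the members, against 4.34% of all genes tested that were called lower, and since the rule used this contrast nothing is read from the gap. DESeq2 called 137 of them lower, where it called 6.6% of all genes with an adjusted p. The members' log2 fold changes ran from -2.91 to -0.78 with a median of -1.13, against a median of -0.01 over all genes tested. On this TMM scale 95 members were at least 2-fold lower and 9 at least 4-fold lower. With library size alone the members' median was -1.30 and that of all genes -0.18.

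The 9 members that were not called lay no nearer to the control level than the others, at a median of 35.4% against 40.9% for the called members. Their standard errors were larger, with a median of 0.514 against 0.184 on the log2 scale. The SE is derived from the F of the test, so a member of like fall that was not called must have a larger SE. In several of these 9 members 1 library stood apart from its group. The member ranked 9 by control CPM had 22.1 CPM in 1 h replicate 2 and 142 and 146 CPM in the other 1 h libraries. The member ranked 55 had 13.1 CPM in 1 h replicate 3 and 43.1 and 62.4 CPM in replicates 1 and 2. Entries listed as newGene, meaning genes outside the PH01 numbering, made up 22 of the 139 members and 5 of these 9. By edgeR, 17 of 22 newGene members (77.3%) and 113 of 117 PH01 members (96.6%) were called. The shares called over all tested genes of each kind were not computed, so nothing is read from this difference.

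**Figure D4:**
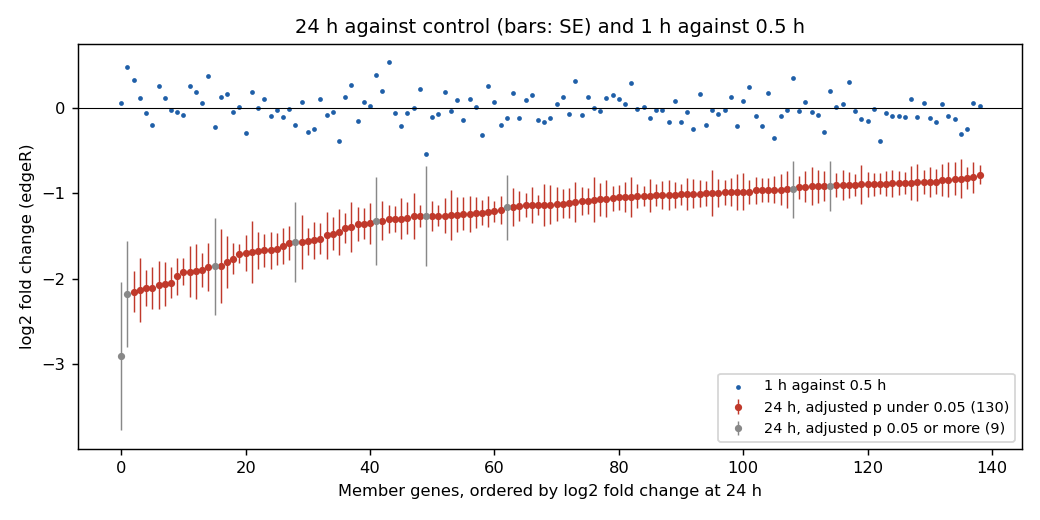
Log2 fold changes from edgeR for the 139 members, ordered by their value at 24 h against control (bars are SE); red points passed the test (130), grey points did not (9), and blue points are the same genes at 1 h against 0.5 h. The 24 h values run from -2.91 to -0.78, and the 1 h against 0.5 h values lie on both sides of 0.

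Among all 417 genes of at least 20 CPM that edgeR called lower at 24 h, the members were 130 (31.2%). Of the other 287, 281 had a higher 24 h value above the fall limit of the rule, 2 had the larger fall and 4 the lower early level. Their median level at 24 h was 55.5% of control, with a median log2 fold change of -0.68. No gap separates the members from these genes, as the values beside the fall limit show.

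Against the earlier cold times, 121 members were called lower at 24 h than at 1 h and 119 lower than at 0.5 h by edgeR, where 5.06% and 3.18% of all genes tested were called lower. The rule's limits nearly fix both contrasts. The median log2 fold changes were -1.08 and -1.07. In all 3 contrasts of 24 h 114 members were called lower, while 8 were called in none. Joint shares over all genes tested were not computed, and the 3 contrasts share the 24 h libraries, so nothing is read from these joint counts. edgeR called 0 members higher at 24 h in any of the 3 contrasts, by adjusted or unadjusted p. Of all genes tested, 3.25%, 4.65% and 1.88% were called higher by adjusted p against the control, 1 h and 0.5 h. DESeq2 also called 0 members higher. The counts rest on both 24 h libraries: against 1 h they were 70 and 68 without 24 h replicates 1 and 2, and against 0.5 h they were 60 and 62.

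Between 0.5 h and 1 h edgeR called 0 of the 139 members, in either direction, where 0% of all genes tested were called lower and 0.00252% higher. The members' count is that of the background, and the rule used both means, so nothing is read from it. With an unadjusted p under 0.05 there were 4 members lower and 2 higher (2.88% and 1.44%, against 3.71% and 3.25% of all genes tested), and DESeq2 called 0 (0.158% of its genes were called lower and 0.168% higher). On the TMM scale the members' log2 fold changes had a median of -0.02 and ran from -0.54 to 0.53, with a median SE of 0.16, and 77 of the 139 were negative. The median over all genes of at least 20 CPM was -0.01. In plain CPM the side turned: the median ratio of the 1 h to the 0.5 h mean was 1.04 in the members, with 48 of the 139 below 1, and 1.05 over all genes of at least 20 CPM. The sign of this small difference thus depends on the scaling.

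Neither early time passed edgeR's test against the control in any member. At 0.5 h edgeR called 0 members, while 8 lay below and 1 above the control with an unadjusted p under 0.05, and DESeq2 called 0 (0.0696% of its genes lower, 0.418% higher). Over all genes tested edgeR called 0.00252% lower and 0.00757% higher, and at the unadjusted p 1.88% were lower and 2.76% higher. At 1 h edgeR called 0 members, while 15 lay lower and 1 higher at the unadjusted p, and DESeq2 called 2 lower. The shares of all genes at 1 h were 0% lower and 0.00505% higher for edgeR, 3.29% and 3.59% at the unadjusted p, and 0.145% and 0.317% for DESeq2. The 0.5 h and 1 h contrasts share the control libraries, and the rule asks for high control values, so early values under the controls are no finding.

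Within the room that the rule left, the members' early levels differed. Their 0.5 h means were 0.688 to 1.21 times control with a median of 0.909, and their 1 h means 0.686 to 1.30 times with a median of 0.952. For all genes of at least 20 CPM the medians were 0.978 and 1.03 in plain CPM, while on the TMM scale their median log2 fold changes were 0.0015 and -0.02, with the sign turned at both times. The members' medians were below the control on that scale too, at -0.105 and -0.123. Most members, 109 of 139, stayed at both times between 0.8 times control and the inverse of that limit. Another 14 were under 0.8 at 0.5 h and back in that range at 1 h, 7 were in range at 0.5 h and under 0.8 at 1 h, and 6 were under 0.8 at both. Only 3 exceeded the upper limit at 1 h, and none did so at 0.5 h. The median 24 h ratios of these groups lay between 0.366 and 0.481, with no order that follows the early level.

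**Figure D5:**
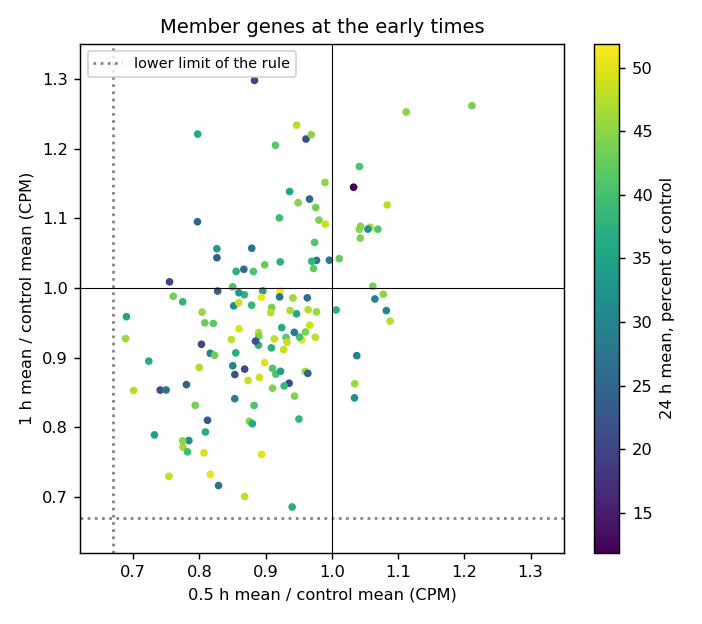
Mean CPM relative to the control mean at 0.5 h (horizontal) and 1 h (vertical) for the 139 members, coloured by the 24 h mean as a percent of control; dotted lines mark the rule's lower limit of 0.67. Most points lie above 0.8 on both axes, and low and high 24 h levels occur throughout.

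In CPM, all 0.5 h libraries lay below every control library in 21 members (5.54% of all genes tested did so), and above every control in 0 (3.92%). All 1 h libraries lay below every control in 9 members (3.94%) and above in 4 (7.73%). Of the 9 libraries other than 24 h, 1 h replicate 2 most often held the highest value, in 46 members (33.1%) and in 27.7% of all genes of at least 20 CPM. Control replicates 1, 2 and 3 held the highest value in 21.6%, 13.7% and 10.1% of members, against 9.72%, 10.3% and 11.3% of those genes. The lowest value was in 0.5 h replicate 2 in 27 members (19.4%), in control replicate 3 in 26 (18.7%) and in 1 h replicate 2 in 23 (16.5%), against 16.1%, 20.8% and 20.1% of all genes of at least 20 CPM. Control replicates 1 and 2 each held the lowest value in 0.719% of members, against 5.52% and 7.07%. The rule asks for high control values, so it sets these shares in part. Without 1 h replicate 2 the rule still kept 139 genes, 138 of them the same.

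The 24 h libraries gave like values for most members. The ratio of replicate 2 to replicate 1 had a median of 1.00 and lay between 0.8 and the inverse of 0.8 in 104 members and within 2-fold in 133. Its interquartile range was 0.907 to 1.12. Over genes of at least 20 CPM the range was 0.929 to 1.13, with a median of 1.03. The members' agreement is thus like that of other abundant genes, and the rule limits both 24 h values, so nothing is read from it. In 3 members replicate 2 was under 0.5 times replicate 1, in 2 it was over 2 times, and in 1 replicate 1 had no count. The largest gap between counted values was in the member ranked 3 by control CPM, at 18.9 CPM in replicate 1 and 57.5 CPM in replicate 2, against 152, 185 and 221 CPM in the controls. In that gene too, both 24 h libraries lay under all others.

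The listed gene length, which the rule did not use, had a lower median in the members than in the other abundant genes. Its median was 4412 bases in the members (interquartile range 2110 to 9110), 6815 bases over the 10687 genes of at least 20 CPM and 2897 bases over all 47091 genes. The median control level was 31.1 CPM in the members and 40.6 CPM over the 10687 genes, and CPM is not corrected for length, so lengths were set side by side within bands of control CPM. Between 20 and 30 CPM the median length was 5156 bases in the members and 7824 in the other genes, from 30 to 60 CPM it was 4410 and 7310, and from 60 CPM upwards 3126 and 5355. Genes of 10000 bases or more were 21.6% of the members and 36.1% of the 10687. Within the members the fall varied little with length: the median 24 h ratio was 0.378 in the 46 shortest members (396 to 2638 bases), 0.416 in the next 46 and 0.42 in the 47 longest (7701 to 151961 bases). The rule's limits on the fall leave little room for a difference here too. The share of newGene entries was 15.8% in the members and 16.0% in the 10687 genes. These are descriptions, with no test over genes.

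Few of the PH01 members shared an identifier prefix (the part before the letter G), but prefixes were not counted over other PH01 genes. The 117 PH01 members carried 114 different prefixes, and 5 members shared a prefix with another. A pair of these had consecutive identifiers. In the controls the first of the pair had 28.5, 26.8 and 27.9 CPM, followed by 6.61 and 8.95 CPM at 24 h, and the second had 30.3, 25.7 and 19.9 CPM, followed by 6.21 and 7.94 CPM at 24 h. Both thus lay at 0.28 times their control mean. Among listed neighbours of members that were not members themselves and had a control mean of at least 1 CPM (149 genes), the median 24 h ratio was 0.839, against 0.896 over the 22944 other PH01 genes of that level that were neither members nor such neighbours. At or under 0.57 were 14.1% of the neighbours and 11.9% of the others.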

How the data were processed

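RNA of whole moso bamboo seedlings was sequenced. Per the labels' protocols, an RNeasy kit was used for extraction and a NEBNext Ultra kit for the libraries. HISAT2, a spliced aligner, is named per the submitters' processing notes; the sources used here do not state its version, the genome build, annotation, counting tool or strand setting. The table as deposited holds raw counts per gene and library, and a gene length in bases of other, unstated origin. Reads shared by near-identical or overlapping genes make such genes uncertain.

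The code in a sample's description gave its column. This gave 11 libraries of 12 labelled samples; 24 h replicate 3 was not analysed here, and 1 column of counts that matched no label was not used. If table and labels were numbered separately, that column may also be a 24 h library and the 24 h replicate numbers would shift. The p-values reflect only how these samples spread, possibly for technical reasons, and a batch aligned with the groups and the cold cannot be told apart.

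R 4.3.3 with edgeR 4.0.16 fitted all 11 libraries with a mean per group (filterByExpr, TMM, quasi-likelihood F-test, Benjamini-Hochberg adjustment over 39640 genes, calls at an adjusted p under 0.05); DESeq2 1.42.0 was an alternative. SE is the log2 fold change divided by the root of its F. CPM in the text uses plain library totals unless TMM is named. Scripts were tested on simulated control and 24 h libraries, fitted without the other groups. Calls there recovered 10 of 67 genes changed 2-fold, 51 of 67 changed 4-fold and 62 of 66 changed 8-fold. Of 138 calls 15 were false. The named members are those with the highest control CPM, with the lowest 24 h to control ratio, and with the highest ratio among members whose early libraries all lay above every control (none at 0.5 h). Members and lists were chosen with earlier results of these data known. Other members with values of their own were picked after these were seen. Alternatives were other scalings, tools, filters, limits of the rule, a replicate block and leaving out each library.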

Additional observations from a re-analysis of the deposited data

Results flagged for a closer look

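Groups of 2 or 3 libraries are too small for a test of single libraries. Fold changes relative to the control differed between cold times, by edgeR's test of the contrast between those times, in 121 members for 24 h and 1 h and in 119 for 24 h and 0.5 h, all lower at 24 h; the rule that chose the members nearly fixes this. For PH01001888G0390 the log2 difference was -1.38 between 24 h and 1 h and -1.31 between 24 h and 0.5 h. For PH01000519G0080 it was -1.31 between 24 h and 1 h and -1.33 between 24 h and 0.5 h.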

How the results depend on the processing

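The number of genes that met the rule moved with its settings: 139 became 77 with TMM-scaled CPM, 76 with RLE-scaled CPM, 66 with a 24 h limit of 0.5 times the lowest control, 321 with a control minimum of 10 CPM and 37 with one of 50 CPM, and 136 to 264 when 1 library was left out. All genes kept by the TMM-scaled, RLE-scaled and 0.5 settings were among the 139. With the members fixed, the count called lower at 24 h was 88 to 134 against the control, 68 to 120 against 1 h and 60 to 128 against 0.5 h when 1 library was left out; with 1 library left at 24 h, its spread is taken from the other groups. No member was called at 1 h against 0.5 h, at 0.5 h or at 1 h against the control when 1 library was left out (0 to 0), and DESeq2 called 2 at 1 h against the control. The members' share of all counts ran from 0.6781% to 0.7187% in the controls, 0.6323% to 0.6437% at 0.5 h, 0.6512% to 0.6791% at 1 h and 0.2709% to 0.2733% at 24 h when 1 library was left out. Deviations from the group means correlated at -0.0435 to 0.0335 over 15 pairs of same-numbered libraries of different groups. Over 30 pairs of differently numbered libraries they correlated at -0.0613 to 0.101. With 2 or 3 libraries per group and uncertain 24 h numbers, this cannot show whether the numbers mark a pairing. With the replicate block, 122 members were called lower at 24 h against the control, 105 against 1 h and 98 against 0.5 h, and 0 in each of the contrasts among earlier times. The log2 fold change of Phyllostachys_edulis_newGene_3033 at 24 h ran from -12.5 to -1.93 when 1 library was left out, with both ends set by a 24 h library. The 24 h log2 fold changes of the 3 named members were negative under every alternative run, which the rule nearly fixes. The members' median difference between 0.5 h and 1 h changed side with the scaling, a ratio of 1.04 in plain CPM and a log2 fold change of -0.02 with TMM. The 2 libraries at 24 h limit every value at that time.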
